A study of Mus musculus with 6 samples.

Results

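Transforming growth factor-β (TGF-β) ligands, their receptors, the proteins that store and release them, and the SMAD proteins that carry their signal were examined in infarct macrophages with and without the α5 integrin chain. The members are 10 genes taken by name from the deposited count table: the ligands Tgfb1, Tgfb2 and Tgfb3, the latent TGF-β binding proteins Ltbp1 and Ltbp3, the receptors Tgfbr1 and Tgfbr2, the signal transducer Smad3, the inhibitor Smad7 and the TGF-β induced protein Tgfbi. They are 10 of the 54532 genes in the table, and all 10 were among the 14522 genes with enough counts to be tested.

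The libraries came from 12-week-old C57BL/6 mice, 7 days after coronary occlusion. The control group, ITGA5 fl/fl (3 libraries), carried 2 loxP-flanked alleles of the integrin α5 gene and no Cre. The Myα5KO group (3 libraries) carried the same floxed alleles together with LyzM-Cre, a Cre recombinase placed in the lysozyme M gene Lyz2 and active in myeloid cells at large, including neutrophils. Cells from digested hearts were depleted of Ly6G+ neutrophils and then selected for CD11b on magnetic columns, so that the retained fraction (Ly6G-/CD11b+) is enriched for macrophages but was not sorted on a macrophage-specific marker. No Cre-only group is part of these libraries, so deletion of Itga5 and presence of the Cre allele cannot be told apart.

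Totals ranged from 15424451 to 18419287 counts per library. Itga5 served as a check of the labels and was at 8.02% of the control level in Myα5KO (log2 fold change -3.64, SE 0.08). Lyz2, the gene that holds the Cre, was at 53.0% (-0.92, SE 0.08). Markers of macrophages were high in every library. Over 10 genes, including Csf1r and C1qa, they summed to 17354 to 17567 CPM in ITGA5 fl/fl and 15330.4 to 16169 CPM in Myα5KO. CPM are counts made comparable between libraries with their totals and TMM factors. The ranges of the groups did not overlap, as described below with the other marker lists. ITGA5 fl/fl replicate 1 stood apart from the other controls in markers of body cavity macrophages, with a summed level of 153 CPM against 387 and 323 CPM. Without this library 2 of the members described below were called (Tgfb3 and Ltbp1), against 3 with it.

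TGF-β is made as a precursor that is cut by furin and then stays bound to its own propeptide, in a latent form that cannot reach the receptors. Latent TGF-β binding proteins anchor this complex in the extracellular matrix, whereas the membrane proteins encoded by Lrrc32 and Nrros tether it to the cell surface. Integrins containing the αv chain, thrombospondin-1 and several proteases release the active ligand. The ligand then brings together the type II and type I receptors, which phosphorylate SMAD2 and SMAD3. SMAD7, itself induced by the pathway, blocks the receptor. In a healing infarct TGF-β is known for restraining inflammation and for driving fibroblasts to make matrix, and macrophages are among its sources.

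Promoter sequences of the members were searched for known motifs, and those of 4 members are shown. The sequences are the RefSeq promoters of build GRCm38.p6, each running from 250 bases before to 50 bases after a transcription start. The search covered 10 starts of 8 of the 10 genes, and Tgfb3 and Smad7 were not included. Ltbp1 and Smad3 are shown because their expression fell, and the ligands Tgfb1 and Tgfb2 because they were the ligands with the highest and the lowest level. Capitals mark the motifs, searched on both strands: the SMAD half-site CAGAC, the AP-1 site TGACTCA, the cyclic AMP response element (CRE) TGACGTCA, the GC box GGGCGG and the TATA box TATAAA. Overlapping matches were allowed.
Ltbp1 (chr17:75005279-75005578, plus strand): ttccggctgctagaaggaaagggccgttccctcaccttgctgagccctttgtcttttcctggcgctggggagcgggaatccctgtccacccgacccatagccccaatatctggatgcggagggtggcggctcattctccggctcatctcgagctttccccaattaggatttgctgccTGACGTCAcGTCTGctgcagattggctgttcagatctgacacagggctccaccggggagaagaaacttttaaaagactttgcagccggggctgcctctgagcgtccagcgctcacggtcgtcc
Smad3 (chr9:63757945-63758244, minus strand): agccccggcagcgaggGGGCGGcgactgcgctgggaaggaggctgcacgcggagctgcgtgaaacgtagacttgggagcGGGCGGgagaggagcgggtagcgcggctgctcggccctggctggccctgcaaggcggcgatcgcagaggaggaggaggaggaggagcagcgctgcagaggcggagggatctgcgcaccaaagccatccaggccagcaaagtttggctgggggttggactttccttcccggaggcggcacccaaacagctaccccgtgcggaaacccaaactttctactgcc
Tgfb1 (chr7:25686752-25687051, plus strand): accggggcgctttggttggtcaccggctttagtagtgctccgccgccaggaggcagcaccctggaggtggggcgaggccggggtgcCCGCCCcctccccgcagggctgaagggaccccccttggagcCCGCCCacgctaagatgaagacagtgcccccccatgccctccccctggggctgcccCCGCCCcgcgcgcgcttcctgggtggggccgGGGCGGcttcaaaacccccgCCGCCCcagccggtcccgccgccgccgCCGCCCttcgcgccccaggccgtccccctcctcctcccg
Tgfb2 (chr1:186705940-186706239, minus strand): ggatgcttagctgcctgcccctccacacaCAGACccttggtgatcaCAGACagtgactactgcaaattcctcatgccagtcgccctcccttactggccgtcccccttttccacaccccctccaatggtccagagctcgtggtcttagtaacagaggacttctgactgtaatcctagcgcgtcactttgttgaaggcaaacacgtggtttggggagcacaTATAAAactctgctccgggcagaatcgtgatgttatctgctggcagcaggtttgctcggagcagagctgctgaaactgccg

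The Ltbp1 promoter held a CRE at position -73 from the start, followed after 1 base by a SMAD half-site at position -64. It is 1 of 2 Ltbp1 starts in the RefSeq table, and the other (chr17:75178531-75178830) had no CRE and 2 SMAD half-sites. A CRE was present in 1.79% of the 32851 mouse promoters searched, and a SMAD half-site in 49.6%. Among the 10 member starts searched, 1 held a CRE and 7 held a SMAD half-site. The Tgfb1 promoter had 6 GC boxes and a GC share of 77.0%, against a median of 52.7% over all promoters. The Smad3 promoter had 2 GC boxes and no other motif of the 5. Of the 10 starts searched, only that of Tgfb2 had a TATA box (position -31), a motif found in 13.6% of all promoters. The Tgfb2 start had no GC box, a motif found in 35.7%. The AP-1 site, present in 5.20% of all promoters, was found at 1 of the starts searched, that of Ltbp3. A match describes the letters in these windows and is not shown to be a site that a factor binds.

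First, the levels of the genes were compared with each other, using the deposited FPKM values, which are divided by gene length. Tgfbi, which encodes a secreted matrix protein induced by TGF-β, had the highest level. It had 343 ± 17.8 FPKM in ITGA5 fl/fl and 341 ± 43.1 FPKM in Myα5KO libraries (SD, n = 3 each). Tgfb1 had 90.2 ± 0.754 and 78.6 ± 4.92 FPKM, and Tgfbr1, the type I receptor, had 83.2 ± 12.2 and 77.3 ± 3.59 FPKM. Tgfbr2, the type II receptor, had 38.2 ± 1.56 and 39.3 ± 4.25 FPKM. Each of these 4 genes stood above at least 95.6% of the genes with a count.

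A middle group of 4 genes followed, formed by Smad7, Ltbp3, Smad3 and Tgfb3, with means over all libraries between 12.8 and 15.6 FPKM. Ltbp1 and Tgfb2 were lowest, at 0.734 and 0.519 FPKM over all libraries. Neighbours in this order whose library ranges overlapped were Tgfb1 and Tgfbr1, the 4 genes of the middle group, and Ltbp1 and Tgfb2. The ranges of all other neighbours did not overlap. The order was the same for all 10 genes when levels were recomputed from the counts and the gene lengths.

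**Figure D1:**
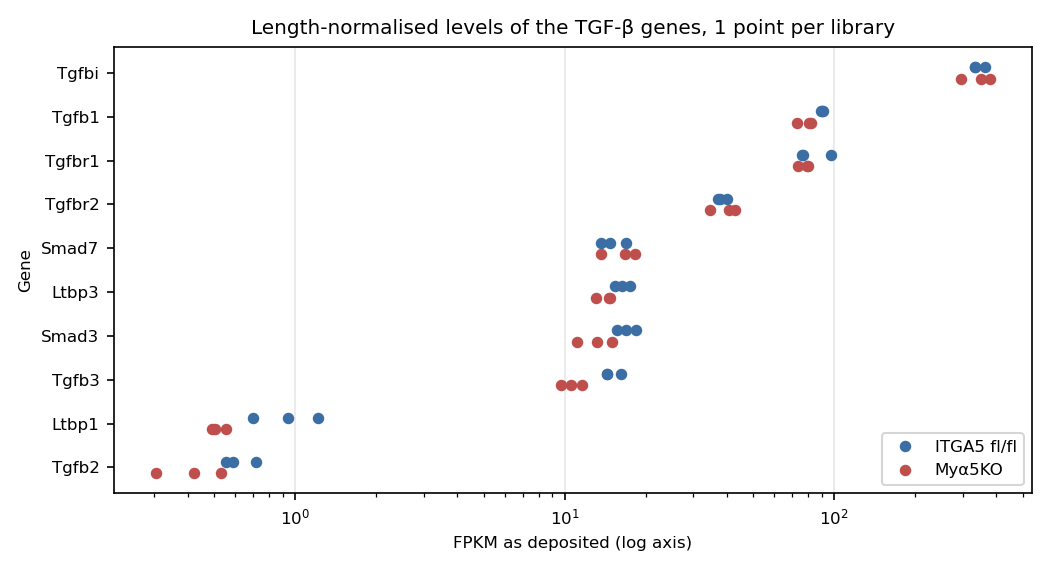
FPKM of the 10 TGF-β genes on a log axis, with 1 point for each library, ITGA5 fl/fl in blue and Myα5KO in red, ordered by the mean over all libraries. Tgfbi lies highest, near 343 FPKM, and Ltbp1 and Tgfb2 lie lowest, with overlapping ranges.

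Next, the groups were compared gene by gene with edgeR's quasi-likelihood test, fitted across all tested genes, in which a gene was called changed at a Benjamini-Hochberg adjusted p of 0.05 or less. Of the 10 genes, 3 fell in Myα5KO libraries (Tgfb3, Ltbp1 and Smad3) and 0 rose. Over all tested genes, 8.75% were called, 5.19% as lower and 3.56% as higher. The members were chosen with earlier results of these data known, so the count and the shares are a description only. The fitted log2 fold change was negative for 8 of the 10, with a median of -0.20, against a median of 0.015 over all tested genes. Tgfbi turned positive and Smad3 lost its call (-0.29, adjusted p 0.0650) when libraries were scaled by their totals alone, a scaling that raised the median of all genes to 0.095 and turned the balance of all calls from 517 higher and 754 lower to 1212 higher and 518 lower. In 6 of the 10 genes all Myα5KO libraries were below all ITGA5 fl/fl libraries, and in 0 all were above. Among all tested genes these patterns occurred in 13.8% and 14.9%. An unadjusted p under 0.05 was reached by 6 of the 10. With limma on log2(FPKM + 1), Tgfb3 alone was called, Smad3 was not (adjusted p 0.116) and Ltbp1 was under the filter on low values, and against a minimum of 1.5-fold 0 were called by edgeR (1 unadjusted). In bulk RNA, fewer cells of a type and less RNA per cell cannot be told apart. Values below are TMM-scaled CPM, which compare libraries within a gene and not genes with each other.

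**Figure D2:**
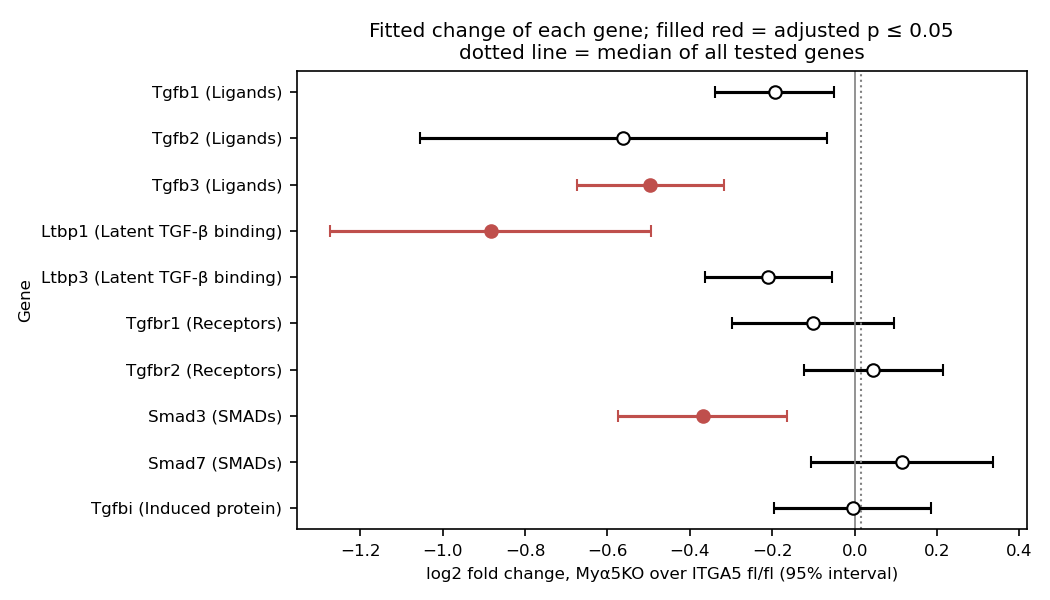
Log2 fold change of Myα5KO over ITGA5 fl/fl for each gene, with the 95% interval of the edgeR fit; filled red points passed the adjusted threshold. Tgfb3 (-0.50), Ltbp1 (-0.88) and Smad3 (-0.37) passed, and the intervals of Tgfb1, Tgfb2 and Ltbp3 also lay below 0.

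Tgfb3 (ENSMUSG00000021253, GRCm38 chromosome 12, 86056745 to 86079041, minus strand, protein coding), a ligand known for its part in palate fusion, had the smallest adjusted p of the 10 genes. Its level was 55.0, 48.9 and 48.8 CPM in replicates 1, 2 and 3 of ITGA5 fl/fl, against 35.7, 39.4 and 33.2 CPM in those of Myα5KO. The groups did not overlap, and the lowest control library was well above the highest Myα5KO library. The mean dropped by 29.1% in Myα5KO (50.9 ± 3.55 against 36.1 ± 3.10 CPM, SD, n = 3 each), or by 0.50 on the log2 scale (edgeR adjusted p 0.0029, SE 0.08). Tgfb3 was called in all 6 fits with a library left out, with log2 fold changes from -0.57 to -0.44. Its exons share 163 and 257 bases with the antisense genes Gm37804 and Gm48008, which held 1 to 5 and 0 to 3 counts per library.

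Tgfb1 (ENSMUSG00000002603, chromosome 7, 25687002 to 25705077, plus strand), the main TGF-β isoform of immune cells, varied little within each group. The ITGA5 fl/fl libraries held 455, 463 and 453 CPM and the Myα5KO libraries 415, 409 and 375 CPM. All Myα5KO libraries were lower, by 12.6% in the mean, but the change missed the threshold over all genes (log2 fold change -0.19, SE 0.07, 95% interval -0.34 to -0.05, edgeR adjusted p 0.0938). With DESeq2 it passed (adjusted p 0.0428; over the alternatives the adjusted p lay between 0.0428 and 1).

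Tgfb2 (ENSMUSG00000039239, chromosome 1, 186622792 to 186705989, minus strand), the ligand best known from heart and lens development, was scarcely expressed. Its counts were 48, 71 and 60 (ITGA5 fl/fl) against 58, 33 and 47 (Myα5KO), equal to 3.22, 4.17 and 3.41 CPM against 3.09, 1.77 and 2.47 CPM. The groups were separated only by the narrow gap between ITGA5 fl/fl replicate 1 and Myα5KO replicate 1. The fitted log2 fold change was -0.56 (SE 0.23, 95% interval -1.06 to -0.07) and was not called (edgeR adjusted p 0.158). At this depth the interval runs from a very small difference to a decrease larger than 2-fold.

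**Figure D3:**
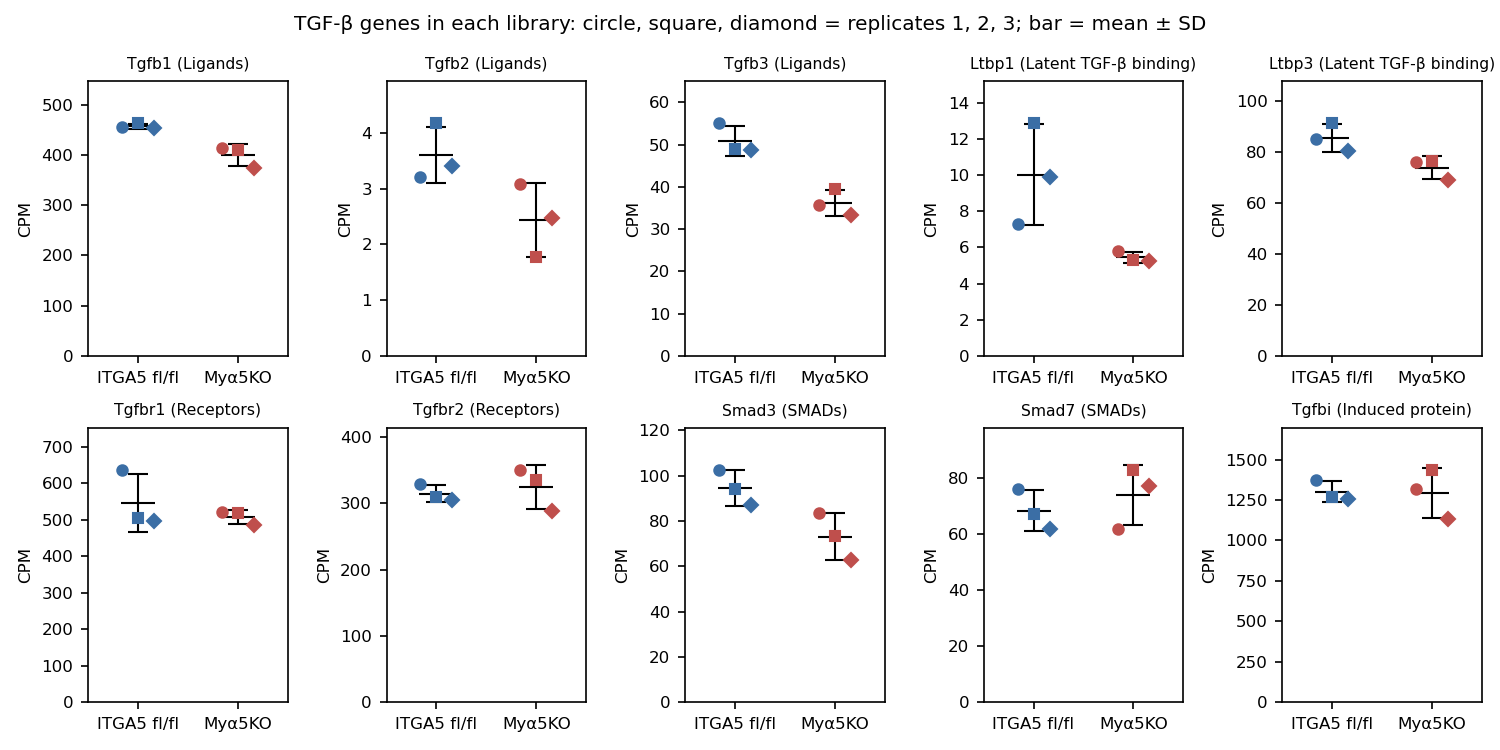
TMM-scaled CPM of each gene in each library, with its own linear axis from 0; circle, square and diamond are replicates 1, 2 and 3, and bars give the mean ± SD. The groups are apart for Tgfb1, Tgfb2, Tgfb3, Ltbp1, Ltbp3 and Smad3, and overlap for Tgfbr1, Tgfbr2, Smad7 and Tgfbi.

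The make-up of the ligand pool was therefore described as each ligand's share of the summed FPKM of the 3 ligands. Tgfb1 made up 84.3 to 85.8% in ITGA5 fl/fl and 87.2 to 88.1% in Myα5KO libraries. Tgfb3 made up 13.5 to 15.2% and 11.3 to 12.5%, and Tgfb2 remained under 1% in every library. The ratio of Tgfb3 to Tgfb1 was 0.166 ± 0.0122 in ITGA5 fl/fl and 0.135 ± 0.00786 in Myα5KO (SD, n = 3 each), without overlap (exact two-sided permutation p 0.1, adjusted p 0.25 over 5 ratios). No ratio can reach a p below 0.1 with 3 libraries per group, and the 5 ratios were chosen after the values were seen.

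Among the latent TGF-β binding proteins, Ltbp1 (ENSMUSG00000001870, chromosome 17, 75005568 to 75392512, plus strand) showed the largest fitted change of the 10 genes. It anchors latent TGF-β to fibrillin and fibronectin in the matrix. Counts were 109, 219 and 174 (ITGA5 fl/fl) against 109, 99 and 100 (Myα5KO), or 7.31, 12.9 and 9.90 CPM against 5.80, 5.30 and 5.26 CPM. The Myα5KO libraries lay close together, whereas the controls were widely spread and ITGA5 fl/fl replicate 1 was nearest to the Myα5KO group. The mean dropped by 45.6% (10.02 ± 2.78 against 5.45 ± 0.304 CPM, SD, n = 3 each), or by 0.88 on the log2 scale (edgeR adjusted p 0.00922, SE 0.18). It was -1.06 without ITGA5 fl/fl replicate 1 and -0.66 without replicate 2, and Ltbp1 was called in all 6 fits with a library left out.

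Ltbp3 (ENSMUSG00000024940, chromosome 19, 5740904 to 5758532, plus strand), a related protein that helps secrete latent TGF-β, held 84.8, 91.1 and 80.2 CPM in ITGA5 fl/fl libraries, against 76.1, 76.5 and 68.8 CPM in Myα5KO libraries. The groups were apart, by less than the spread within each group, and Ltbp3 was not called (log2 fold change -0.21, SE 0.07, edgeR adjusted p 0.0900). The ratio of Ltbp1 to Ltbp3 in FPKM was 0.0579 ± 0.0139 in ITGA5 fl/fl and 0.0366 ± 0.00203 in Myα5KO (exact permutation p 0.1, adjusted p 0.25).

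The signalling receptors did not separate the groups. Tgfbr1 (ENSMUSG00000007613, chromosome 4, 47353222 to 47414931, plus strand), the kinase that phosphorylates SMAD2 and SMAD3, had 637, 504 and 497 CPM in ITGA5 fl/fl libraries, against 522, 518 and 487 CPM in Myα5KO libraries. ITGA5 fl/fl replicate 1 stood above the other 5 libraries, and the groups overlapped (log2 fold change -0.10, SE 0.09, 95% interval -0.30 to 0.09, edgeR adjusted p 0.551). Without that library the fitted value was 0.023.

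Tgfbr2 (ENSMUSG00000032440, chromosome 9, 116084293 to 116175360, minus strand), which binds the ligand first, had 328, 310.0 and 305 CPM in ITGA5 fl/fl libraries, against 350.3, 335 and 288 CPM in Myα5KO libraries. The Myα5KO libraries lay on both sides of the controls (log2 fold change 0.05, SE 0.08, 95% interval -0.12 to 0.21, edgeR adjusted p 0.781). The ratio of Tgfbr2 to Tgfbr1 in FPKM was 0.464 ± 0.0455 in ITGA5 fl/fl and 0.508 ± 0.0324 in Myα5KO, with overlap (exact permutation p 0.3, adjusted p 0.3).

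Downstream of the receptors, Smad3 (ENSMUSG00000032402, chromosome 9, 63646767 to 63757994, minus strand), the transcription factor through which TGF-β activates many matrix genes, fell by 22.6%. Its level was 102, 94.1 and 86.8 CPM in ITGA5 fl/fl libraries, against 83.5, 73.1 and 62.6 CPM in Myα5KO libraries. The groups were adjacent, since the highest Myα5KO library was just under the lowest control (94.5 ± 7.83 against 73.1 ± 10.4 CPM, SD, n = 3 each). The log2 fold change was -0.37 (SE 0.10, edgeR adjusted p 0.0297). The call was lost without ITGA5 fl/fl replicate 1 (-0.31, adjusted p 0.0973) or 2 (-0.37, adjusted p 0.0842) or without Myα5KO replicate 2 (-0.37, adjusted p 0.0767) or 3 (-0.27, adjusted p 0.0728).

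Smad7 (ENSMUSG00000025880, chromosome 18, 75367529 to 75395935, plus strand) had 76.2, 67.1 and 61.7 CPM in ITGA5 fl/fl libraries, against 62.0, 82.9 and 77.0 CPM in Myα5KO libraries. The ranges of the groups overlapped (log2 fold change 0.12, SE 0.10, 95% interval -0.11 to 0.34, edgeR adjusted p 0.548). The Smad7 value depended on single libraries, from 0.022 without Myα5KO replicate 2 to 0.22 without Myα5KO replicate 1 (adjusted p 0.151), and was called in none of these fits. The ratio of inhibitor to transducer, Smad7 to Smad3 in FPKM, was 0.912, 0.874 and 0.871 in the controls, against 0.909, 1.39 and 1.51 in Myα5KO. Myα5KO replicate 1 lay within the control range, and the other Myα5KO libraries were above it (exact permutation p 0.2, adjusted p 0.25).

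Tgfbi (ENSMUSG00000035493, chromosome 13, 56609523 to 56639562, plus strand), named for its induction by TGF-β, had 1375, 1269 and 1257 CPM in ITGA5 fl/fl libraries, against 1321, 1436 and 1129.6 CPM in Myα5KO libraries. The means were within 0.366% of each other, and the control libraries fell inside the range of the Myα5KO libraries (log2 fold change -0.01, SE 0.09, 95% interval -0.20 to 0.19, edgeR adjusted p 0.983).

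To place these genes in the pathway, 64 further TGF-β genes in 4 lists were read from the same fit, of which 62 were tested. Of these, 11 fell and 1 rose, against 5.19% of all tested genes lower and 3.56% higher. The lists were chosen with earlier results of these data known, so the counts and shares are a description only. The list of latency and activation genes had 21 tested members, of which 5 fell and 0 rose, with a median log2 fold change of -0.09. Of 6 other receptors, 0 were called by edgeR (1 at an unadjusted p under 0.05), with a median of 0.05. Of 22 transducers and inhibitors 2 fell and 0 rose (median -0.023), and of 13 tested response genes 4 fell and 1 rose (median -0.045). Together with the microglia genes described below, 3 rose and 11 fell, against 6 and 8 with library-size scaling and 4 and 8 without ITGA5 fl/fl replicate 1. Without ITGA5 fl/fl replicate 3, 1 rose and 6 fell.

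**Figure D4:**
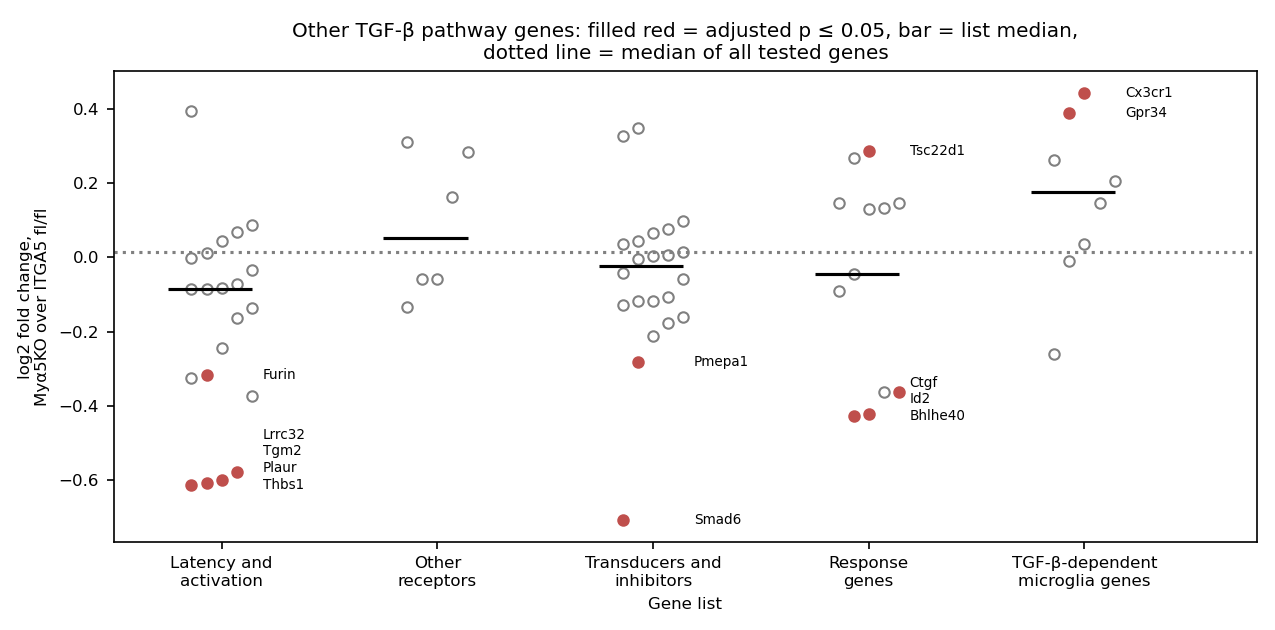
Log2 fold changes of Myα5KO over ITGA5 fl/fl for the tested genes of the 4 TGF-β pathway lists and of the TGF-β-dependent microglia list, 1 point per gene; filled red points passed the adjusted threshold and bars are list medians over all tested members. 1 called response gene is not drawn. The called genes of the latency and activation list all lie below 0, and the called genes of the microglia list lie above it.

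The latency and activation genes that fell act at several steps. Thbs1 encodes thrombospondin-1, a matrix protein that can release TGF-β from its propeptide. It held 5799, 6196 and 6818 CPM in ITGA5 fl/fl libraries, against 4668, 4595 and 3036 CPM in Myα5KO libraries, without overlap (log2 fold change -0.61, SE 0.14, edgeR adjusted p 0.0135). Leaving out ITGA5 fl/fl replicate 3 ended its call (-0.55, adjusted p 0.0663).

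Plaur, the urokinase receptor that gathers plasmin activity at the cell surface, had 452, 479 and 482 CPM in ITGA5 fl/fl libraries, against 304, 307 and 315 CPM in Myα5KO libraries. The groups were far apart relative to their spread (log2 fold change -0.61, SE 0.06, edgeR adjusted p 0.000153). Tgm2, the transglutaminase that crosslinks latent TGF-β into matrix, had 990.3, 963 and 947 CPM against 680.1, 692 and 542 CPM (-0.60, SE 0.09, adjusted p 0.00141).

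Lrrc32 encodes GARP, a membrane anchor of latent TGF-β. It had 45.4, 42.8 and 40.7 CPM in ITGA5 fl/fl libraries, against 25.4, 31.8 and 29.0 CPM in Myα5KO libraries (log2 fold change -0.58, SE 0.09, edgeR adjusted p 0.00176). Furin, which cuts the TGF-β precursor, fell by 0.32 on the log2 scale (SE 0.08, adjusted p 0.0224), from 635 ± 30.8 to 510.3 ± 43.6 CPM (SD, n = 3 each). Furin lost its call without ITGA5 fl/fl replicate 1 (-0.29) or 3 (-0.31), and with library-size scaling.

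The other anchor, Nrros, which is the tether of latent TGF-β in myeloid cells, had 349.9 ± 1.24 CPM in ITGA5 fl/fl libraries, against 361 ± 10.9 CPM in Myα5KO libraries (log2 fold change 0.04, SE 0.06, 95% interval -0.09 to 0.18, edgeR adjusted p 0.73). The αv chain gene Itgav, part of the TGF-β-activating integrins, had 319 ± 20.2 and 284 ± 25.6 CPM (-0.16, SE 0.08, adjusted p 0.237). Its partner and that of the deleted α5 chain, Itgb1, had 752 ± 4.45 and 708 ± 44.7 CPM (-0.09, SE 0.07, adjusted p 0.503). Itgb8, which pairs with αv, was near 1 CPM in both groups (-0.09, SE 0.31, 95% interval -0.76 to 0.59), and no difference was detectable at this depth.

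Among the other receptors, the co-receptor genes Tgfbr3 and Eng were not called. Tgfbr3 had 5.59 ± 0.281 and 6.93 ± 1.59 CPM (log2 fold change 0.31, SE 0.17, edgeR adjusted p 0.303), and Eng had 96.9 ± 3.98 and 93.1 ± 2.15 CPM (-0.06, SE 0.06, adjusted p 0.631).

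In the transducer and inhibitor list, the 2 genes that fell are inhibitors. Smad6, which mainly restrains signals of bone morphogenetic proteins, had 11.4, 11.6 and 16.9 CPM in ITGA5 fl/fl libraries, against 7.83, 8.56 and 8.10 CPM in Myα5KO libraries (log2 fold change -0.71, SE 0.15, edgeR adjusted p 0.0113). Smad6 lost its call without ITGA5 fl/fl replicate 3, the highest library (-0.50, adjusted p 0.0537). Pmepa1, which sequesters SMAD2 and SMAD3, had 114 ± 2.36 and 93.4 ± 8.74 CPM (-0.28, SE 0.07, adjusted p 0.0291), and was called in 1 of the 6 fits with a library left out.

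Smad2, the second receptor-activated SMAD of TGF-β, had 38.1 ± 0.380 CPM in ITGA5 fl/fl libraries, against 38.3 ± 2.05 CPM in Myα5KO libraries (log2 fold change 0.01, SE 0.07, 95% interval -0.15 to 0.16, edgeR adjusted p 0.97). Smad4, the partner shared with other pathways, had 75.0 ± 3.96 and 66.3 ± 5.90 CPM (-0.18, SE 0.08, adjusted p 0.184).

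Of the response genes, Bhlhe40, a transcriptional repressor, had 449.6, 469 and 460.3 CPM in ITGA5 fl/fl libraries, against 331, 352 and 342 CPM in Myα5KO libraries. All Myα5KO libraries were below all controls (log2 fold change -0.43, SE 0.06, edgeR adjusted p 0.00143).

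Id2, a transcription inhibitor that TGF-β represses in epithelial cells, had 557, 537 and 563 CPM in ITGA5 fl/fl libraries, against 355, 437 and 445 CPM in Myα5KO libraries (log2 fold change -0.42, SE 0.08, edgeR adjusted p 0.00818). Ctgf (also Ccn2), a matricellular protein induced in fibroblasts, had 34.7 ± 5.68 and 26.9 ± 1.16 CPM (-0.36, SE 0.11, adjusted p 0.0479). Tsc22d1, first described as a TGF-β-stimulated clone, was the gene that rose, from 64.6 ± 3.54 to 78.8 ± 8.69 CPM (0.29, SE 0.08, adjusted p 0.0457). With single libraries left out, Ctgf stayed called in 1 of 6 fits, that without ITGA5 fl/fl replicate 2 (-0.45), and was -0.23 without ITGA5 fl/fl replicate 1, the change furthest from the value over all libraries (adjusted p 0.165). Tsc22d1 stayed called in 1 of 6, that without Myα5KO replicate 1, and ran from 0.20 to 0.35.

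Microglia, the macrophages of the brain, need TGF-β to keep their characteristic genes, and 10 such genes were listed beside the pathway. Of the 8 tested, 2 rose and 0 fell, against 3.56% of all tested genes higher and 5.19% lower. The log2 fold change was positive for 6 of the 8 and negative for 2, with a median of 0.18 against 0.015 over all tested genes. The other 2 genes had too few counts to be tested. This list, too, was chosen with earlier results of these data known. Cx3cr1, the fractalkine receptor of resident macrophages and patrolling monocytes, had 275, 272 and 259 CPM in ITGA5 fl/fl libraries, against 354, 396 and 347 CPM in Myα5KO libraries (0.44, SE 0.07, edgeR adjusted p 0.00219). Gpr34, a lysophosphatidylserine receptor, had 27.1 ± 4.09 and 35.3 ± 2.23 CPM (0.39, SE 0.10, adjusted p 0.0332), and was called in 2 of the 6 fits with a library left out.

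Several TGF-β genes are also expressed by cells other than macrophages, so marker levels were set beside them. The 14 fibroblast markers summed to 1714.5 to 2003 CPM in ITGA5 fl/fl libraries, against 1301 to 1659 CPM in Myα5KO libraries. None of these 14 markers was at 0, all 14 had a negative log2 fold change and 1, Postn, was called. With library-size scaling the fibroblast sums overlapped (1676 to 1937 against 1343 to 1709 CPM), 12 of the 14 genes were negative and 0 were called. The 10 body cavity macrophage markers, which include Gata6, Prg4 and Serpinb2, summed to 153 to 387 CPM in ITGA5 fl/fl and 114 to 133 CPM in Myα5KO. None was at 0, all 10 had a negative log2 fold change and 6 were called lower, Prg4 and Serpinb2 among them. Gata6 (-0.19, edgeR adjusted p 0.575), Icam2, F10 and Timd4 were not called. ITGA5 fl/fl replicate 1 was the lowest control library both for these markers and for Ltbp1.

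Cardiomyocyte markers summed to 25.7 to 27.7 CPM in ITGA5 fl/fl libraries, against 16.6 to 21.1 CPM in Myα5KO libraries, with 3 of 10 tested genes called lower and none at 0. Granulocyte markers, in contrast, were higher in Myα5KO (187 to 226 against 246 to 372 CPM), as were those of B cells (111 to 152 against 155 to 237 CPM), T and NK cells (7.51 to 8.93 against 10.01 to 12.1 CPM) and dendritic cells (47.4 to 70.8 against 71.9 to 76.9 CPM). Of the tested granulocyte markers, 5 of 8 were called higher, with a median log2 fold change of 1.53 over the 8. Csf3r, the granulocyte colony-stimulating factor receptor, had 155 ± 16.6 CPM in ITGA5 fl/fl libraries, against 169 ± 12.3 CPM in Myα5KO libraries, and was not called, whereas the granule protein genes Ltf (log2 fold change 2.05) and Camp (1.89) were. Called higher were also 2 of 6 B cell, 1 of 6 dendritic cell and 0 of 5 T and NK cell markers (2 of these 5 at an unadjusted p under 0.05). Some tested genes of these lists had a negative log2 fold change without being called. They were Retnlg of granulocytes (-0.65), Foxp3 of T cells (-0.71), and Xcr1 (-0.43) and Zbtb46 (-0.0085) of dendritic cells. The sums of endothelial, platelet, and mast cell and eosinophil markers overlapped between the groups. With library-size scaling, however, endothelial markers were apart and higher in Myα5KO (305 to 332 against 337 to 391 CPM). Of the 8 endothelial genes, Kdr was called higher (log2 fold change 0.26, edgeR adjusted p 0.0433) and Cldn5 lower (-0.44, adjusted p 0.0356). Of the markers in these lists, the platelet genes Gp1bb and Gp6 were at 0 in every library, and Ly6g, Cd3d and Epx in at least 1. Macrophage markers were apart and lower in Myα5KO, at 90.2% of the control mean. The difference of the means was -1708 CPM for the sum and -1265 CPM for Cd14 alone. With library-size scaling the macrophage sums stayed apart, at 95.4% of the control mean, but 7 of the 10 genes had a positive log2 fold change. With TMM scaling 1 was positive and 9 were negative. Of these 10 genes, Cd14 was called lower with TMM scaling (4755 ± 160 against 3489 ± 239 CPM, log2 fold change -0.45, edgeR adjusted p 0.00413). Fcgr1 was called higher (195 ± 7.57 against 235 ± 8.49 CPM, 0.27, adjusted p 0.0215), and no other was called. The groups were apart in 8 of the 11 lists, each with the smallest p the design allows (exact two-sided permutation p 0.1, adjusted p 0.138). The part of these cell types in the values of Tgfb3, Ltbp1, Smad3 and the called pathway genes was not tested.

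**Figure D5:**
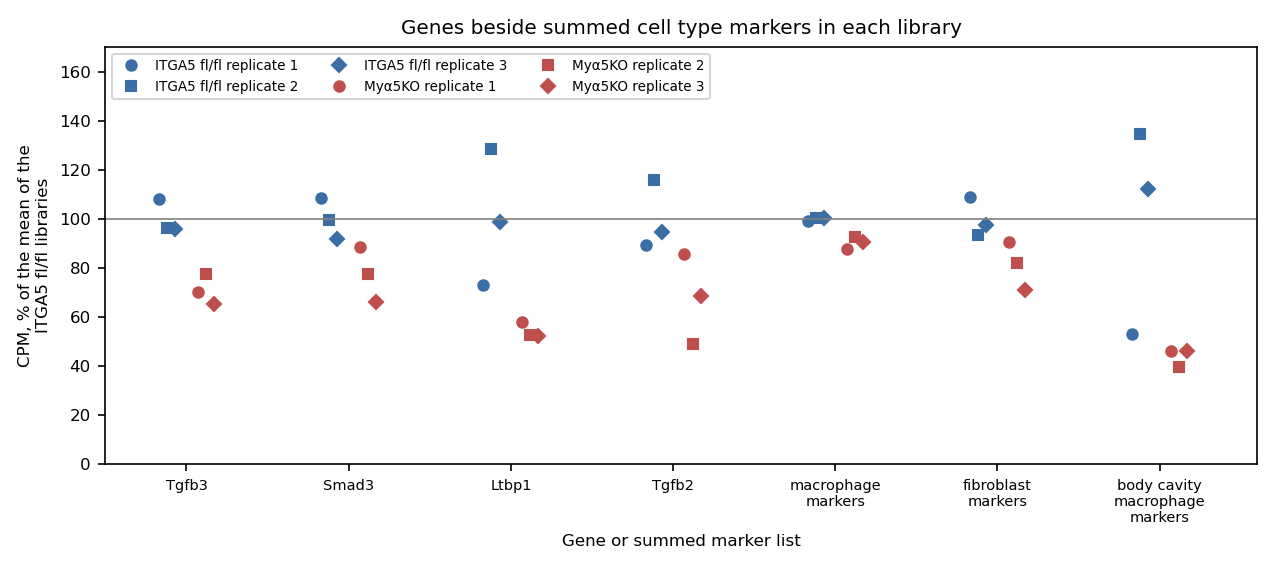
CPM of Tgfb3, Smad3, Ltbp1 and Tgfb2 and of 3 summed marker lists in each library, as a percentage of the mean of the ITGA5 fl/fl libraries (grey line at 100). The body cavity macrophage markers of ITGA5 fl/fl replicate 1 lie next to the Myα5KO libraries, as its Ltbp1 level does, whereas its Tgfb3 and Smad3 levels are the highest of all libraries.

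Finally, for each member that fell, the genes with the most similar pattern over the 6 libraries were identified, as a description, by Pearson's r of log2 CPM among 8293 genes with a mean of 10 CPM or more. The points share the difference between the groups and library depth, and with 6 libraries many genes correlate closely. Tgfb3 was followed most closely by Zdhhc18, Nfkb2 and Stat3 (r 0.999, 0.997 and 0.996), and 630 genes had an r above 0.9. Ltbp1 was followed by Frrs1, Smg5 and Slc7a2 (r 0.998, 0.986 and 0.984), and 141 genes had an r above 0.9. Frrs1 and Smg5 were not called (log2 fold changes -0.14 and -0.12, edgeR adjusted p 0.205 and 0.277). Smad3 was followed by Arhgap31, Ston2 and Lamc1 (r 0.994, 0.991 and 0.990), and 397 genes had an r above 0.9.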

How the data were processed

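RNA-seq of Ly6G-/CD11b+ infarct cells was analysed in 6 libraries, grouped by their titles. The authors aligned filtered reads to GRCm38.p6 with TopHat2 2.0.9 and counted reads per gene with HTSeq 0.6.1. The deposited counts are whole, unnormalised numbers. The deposited FPKM values by the authors equal the count divided by gene length and by a constant per library that tracks its DESeq2 size factor. Strand and multi-mapping settings are not given in the sources used here, so counts of overlapping genes are uncertain.

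Counts were tested with edgeR 4.0.16 (R 4.3.3): TMM scaling, filterByExpr (minimum count 10, minimum total 15), quasi-likelihood fit over 14522 genes, two-sided, without covariates. SE is of the log2 fold change. Scripts were tested on simulated data. Alternatives were DESeq2 1.42.0, limma-voom and limma on log2(FPKM + 1) or log2(FPKM + 0.1) (limma 3.58.1), other scalings and filters, a replicate block, single libraries left out and a 1.5-fold minimum. Libraries of a group differed beyond sampling noise. Amplified reads carry no molecular identifiers, so the totals bound counting error only, and the labels give separate samples. Members and lists were chosen with earlier results of these data known. Named are all members, the called list genes (up to 6 per list) and Thbs1, Itgav, Itgb1, Itgb8, Nrros, Smad2, Smad4, Tgfbr3 and Eng. Some items that this rule covers are not reported here. Marker genes named as examples were chosen after their values were seen.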

Additional observations from a re-analysis of the deposited data

How the results depend on the processing

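Of the members 3 were called by edgeR, and the same 3 with limma-voom, median-ratio scaling, upper quartile scaling, no count filter and 10 counts in every library. Those called were 4 with DESeq2 (with Tgfb1) and 2 with library-size scaling (without Smad3). On the FPKM scale 1 (Tgfb3) was called with either pseudocount, where Ltbp1 and Tgfb2 were below the filter, and 0 without the filter (5 at an unadjusted p under 0.05). The test against 1.5-fold called 0 (1 unadjusted). Leaving out single libraries gave 2 to 3 calls. Of the 70 tested pathway and microglia genes, 14 were called, against 7 with log2(FPKM + 1), 6 with log2(FPKM + 0.1), 1 without the FPKM filter and 0 against 1.5-fold (0 unadjusted). Leaving out single libraries gave 7 to 14, with 7 without ITGA5 fl/fl replicate 3. Apart from the missing genes and the required size, the cause was not tested. Replicate numbers did not pair the samples (same-numbered r 0.0509, -0.0576 and 0.0434), and a fit with the replicate number as a block called 3 members and 14 others.

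Over the alternatives the adjusted p ran up to 1 and down to 7.27e-05 for Tgfb3, 0.00101 for Ltbp1, 0.00547 for Smad3, 0.00636 for Thbs1 and 0.00234 for Smad6. Signs turned only in genes not called. Over the fits leaving out single libraries the log2 fold change ran from -0.17 to 0.023 for Tgfbr1 (positive without ITGA5 fl/fl replicate 1), from -0.018 to 0.12 for Tgfbr2 (negative without Myα5KO replicate 1), from -0.089 to 0.085 for Tgfbi (positive without ITGA5 fl/fl replicate 1 and without Myα5KO replicate 3), from -0.26 to 0.081 for Itgb8 (positive without Myα5KO replicate 3) and from -0.038 to 0.026 for Smad2 (negative without ITGA5 fl/fl replicate 3 and without Myα5KO replicate 3). Tgfbi was 0.075 with library-size scaling and 0.0022 without a count filter, and Eng 0.023 with library-size scaling. Smad2 was -0.0035 and -0.00064 with median-ratio and upper quartile scaling and -0.0087 with 10 counts in every library. Library-size scaling moved the median of all genes from 0.015 to 0.095 on the log2 scale, and higher calls from 40.7% to 70.1% of all calls. The order of levels was the same when recomputed from TMM-scaled CPM and gene lengths, and was not recomputed with the other scalings. With library-size CPM, 8 marker lists were again apart, but not the same ones, since fibroblast markers overlapped and endothelial markers were apart. Fits without a count filter had infinite prior degrees of freedom and are left out of ranges of adjusted p.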
